A study of Mus musculus with 6 samples.

Results

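The heme biosynthesis enzymes examined here are encoded by 8 genes, named in the order in which their products act: Alas1, Alas2, Alad, Uros, Urod, Cpox, Ppox and Fech. They were taken by symbol as a pathway, with earlier results of these data known, and every probe set annotated to one of them was taken, which gave 19 of the 45037 probe sets tested and 8 of the 18193 genes measured. The members do not cover every step of the pathway. Heme is made partly in the mitochondrion and partly in the cytosol, from glycine and succinyl-CoA to protoporphyrin, into which iron is then inserted. Every cell makes some heme for its cytochromes, but red cell precursors make by far the most, for hemoglobin, and the mouse spleen is a site of red cell production in the adult as well as a lymphoid organ.

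RNA of spleen cells from female NOD mice, a strain that becomes diabetic spontaneously through autoimmunity, was measured on 6 Affymetrix arrays in 3 groups. Untreated mice that did not become diabetic, untreated mice that did, and mice given trichostatin A (TSA), an inhibitor of histone deacetylases, each gave 2 arrays. TSA was injected under the skin every week at 500 µg per kg body weight from 18 to 24 wk of age, and the labels give an age of 32 to 36 wk for all 3 groups, whereas the methods of the study give other ages for both diabetic and TSA-treated mice. The TSA-treated group held cured mice, since treated mice that stayed diabetic had been left out, so this group was selected on its outcome. RNA of 3 to 5 mice per group was pooled according to the series' design text, while the methods give another pool size, and each pool was hybridized in duplicate. The 2 arrays of a group are thus technical duplicates of 1 pool, and every SD, interval and p-value below describes the spread between hybridizations and not between mice.

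Levels are log2 values from Robust Multi-array Average (RMA), and a difference of 1 on this scale is a doubling. The duplicates did not agree equally well. The SD of the difference between duplicates over all probe sets was 0.253 in the non-diabetic group, 0.522 in the diabetic group and 0.589 in the TSA-treated group. The 3′ to 5′ gap of the beta-actin control probe sets, a sign of RNA or labeling quality, was 2.35 and 2.05 on the non-diabetic arrays, 2.42 and 3.32 on the diabetic arrays, and 3.45 and 5.61 on the TSA-treated arrays. TSA-treated replicate 2 had the widest gap, and 14 of the 19 member probe sets (73.7%) were lower on it than on replicate 1, against 42.1% of all probe sets. The part of RNA quality in the results was not tested.

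In these duplicates no member probe set passed the test (limma, Benjamini-Hochberg adjusted p under 0.05 over all probe sets) in any of the 3 comparisons. The counts were 0 of 19 for diabetic against non-diabetic mice, where 0.0888% of all probe sets passed, 0 of 19 for TSA-treated against non-diabetic mice, where 0.0688% passed, and 0 of 19 for diabetic against TSA-treated mice, where 0.0266% passed. At an unadjusted limma p under 0.05, 5 member probe sets of Alad, Uros and Urod were higher in diabetic than in non-diabetic mice, against 2.84% of all probe sets, and 0 were lower, against 3.43%. For TSA-treated against non-diabetic mice 9 were higher, of Alad, Uros, Urod, Cpox, Ppox and Fech, against 6.39% of all probe sets, and 0 were lower, against 8.34%. For diabetic against TSA-treated mice 5 were lower in the diabetic mice, of Uros, Urod, Cpox, Ppox and Fech, against 2.21% of all probe sets, and 0 were higher, against 2.06%. None of the probe sets of Alas1 and Alas2, the genes of the first enzyme, was among them. Since the 3 comparisons share arrays, their counts are not independent of each other.

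The promoters of 3 members are printed first: that of Alas2, the red cell form of the first enzyme, that of Cpox, whose window held a pair of overlapping words, and that of Urod, which had the lowest unadjusted p of the members. Each run is the 250 bases before the RefSeq start site on GRCm38.p6, 5′ to 3′ on the gene's strand. Capitals mark the words searched on either strand, which were AGATAA with its variant TGATAA and, ending in another base, AGATAG with its variant TGATAG, which are read by GATA factors such as the erythroid factor GATA1. The Alas2 window lies at chrX:150547167-150547416 on the plus strand, the Cpox window at chr16:58669958-58670207 on the plus strand and the Urod window at chr4:116994414-116994663 on the minus strand.
Alas2: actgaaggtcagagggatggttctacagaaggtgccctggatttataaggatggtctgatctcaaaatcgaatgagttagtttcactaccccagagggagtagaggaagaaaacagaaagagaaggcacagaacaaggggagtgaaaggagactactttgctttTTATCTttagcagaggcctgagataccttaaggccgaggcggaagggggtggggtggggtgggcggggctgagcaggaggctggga
Cpox: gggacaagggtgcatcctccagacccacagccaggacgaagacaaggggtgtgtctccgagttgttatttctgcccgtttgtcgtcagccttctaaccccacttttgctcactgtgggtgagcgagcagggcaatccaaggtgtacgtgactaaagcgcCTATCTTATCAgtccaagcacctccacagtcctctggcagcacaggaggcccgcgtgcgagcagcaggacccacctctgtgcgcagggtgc
Urod: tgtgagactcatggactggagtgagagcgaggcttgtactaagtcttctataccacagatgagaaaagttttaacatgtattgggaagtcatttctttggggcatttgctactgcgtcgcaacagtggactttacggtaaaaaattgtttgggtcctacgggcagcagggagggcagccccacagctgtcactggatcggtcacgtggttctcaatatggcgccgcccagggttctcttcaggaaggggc
The Alas2 window held TTATCT beginning 86 bases before the start. The Cpox window held CTATCT at 91 bases and TTATCA at 86 bases, which share a base, and the Urod window held none of these words.

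RefSeq windows of 7 of the members were used, 10 start sites in all, and Fech was left out. Of the 10, 3 held a GATA word (Alas2, Uros and Cpox), against 26.5% of 32851 windows of the same length. For Uros this was the window at chr7:133702501-133702750 on the minus strand. Its other window, chr7:133709296-133709545, belongs to a start further upstream and held none. The palindromic word of the respiratory gene factor NRF1 is in capitals in the run that follows. It stood in 1 of the 10 windows, against 0.782% of all windows. This was a window of the housekeeping gene Alas1, with the run at chr9:106247906-106247935 on the minus strand. The other Alas1 window, chr9:106247955-106248204, belongs to a start further upstream and held none.
Alas1, 195 bases before the start: cgcacccaagGCGCATGCGCggcggtcact
The word CCACACCC, read by factors such as KLF1, stood in 0 of the 10, against 3.2% of all windows. The words were chosen with the sequences in view, and a match is a description of letters and not of a bound site.

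The first and rate-limiting step, the joining of glycine and succinyl-CoA, is catalyzed by Alas1 in most cells and by Alas2 in red cell precursors. Alas1 (1424126_at, its brightest probe set) was at 6.36 and 6.08 in non-diabetic, 6.11 and 6.64 in diabetic and 6.33 and 5.01 in TSA-treated mice. TSA-treated replicate 2 was the lowest array and the other 5 overlapped. The TSA-treated mean differed from the non-diabetic mean by -0.55 (95% interval -1.65 to 0.54, limma adjusted p = 0.635). Its other probe set, 1455282_x_at, lay between 3.77 and 4.19 on all arrays.

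Alas2 (1451675_a_at, its only probe set) was at 11.12 and 11.09 in non-diabetic, 11.24 and 10.96 in diabetic, and 11.39 and 8.60 in TSA-treated mice. TSA-treated replicate 2 stood far below the other 5 arrays, which lay close together. The non-diabetic and diabetic means were both 11.10 (SD 0.03 and 0.20, n = 2), but the 95% interval of their difference, -2.04 to 2.03, is too wide to call them alike. The TSA-treated mean, 9.99 (SD 1.98, n = 2), differed from the non-diabetic mean by -1.11 (SE 0.83, limma adjusted p = 0.602). This direction was set by 1 array: without TSA-treated replicate 2 the difference was 0.29 (limma adjusted p = 0.612), and without replicate 1 it was -2.51 (limma adjusted p = 0.0172). Wherever a TSA-treated array is left out, here and for the genes that follow, the group is a lone array assumed to vary like the other groups, so such a p does not measure its spread.

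**Figure D1:**
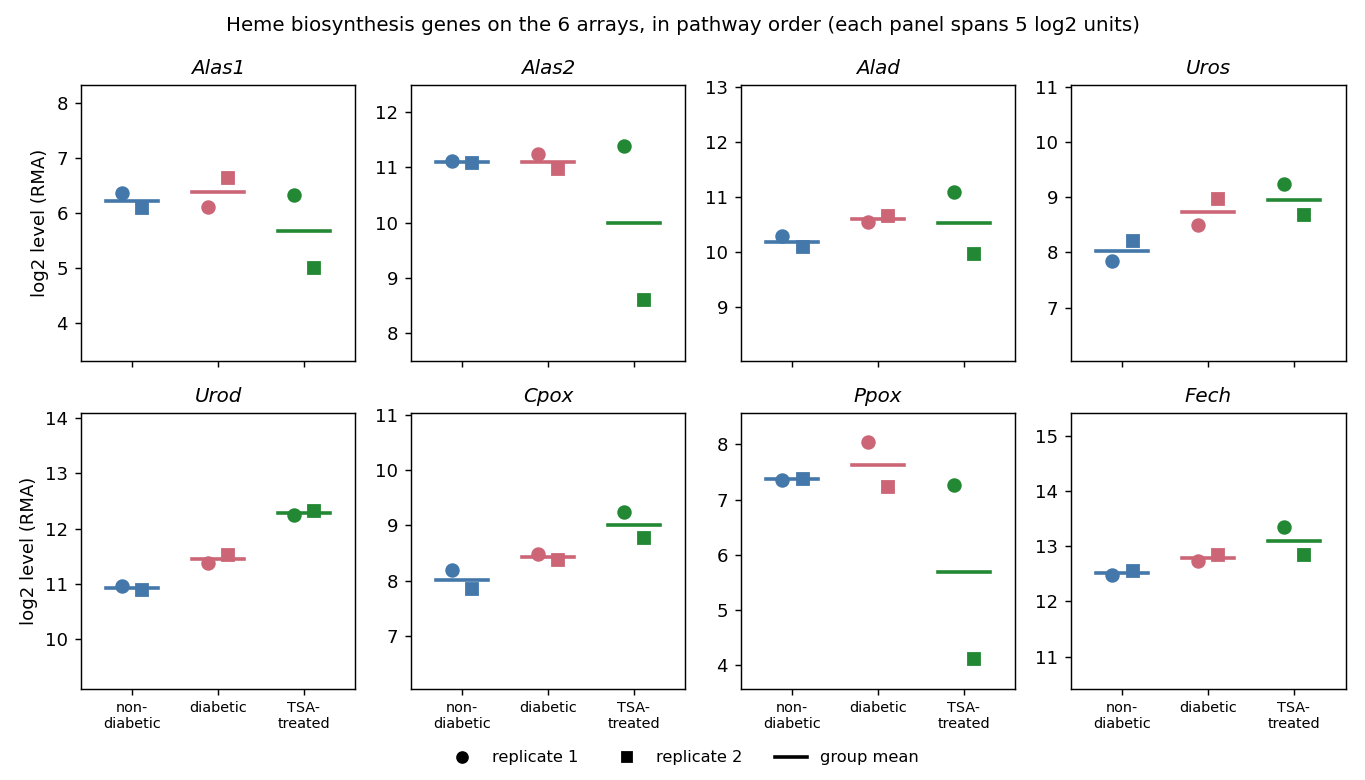
Log2 RMA level (vertical axis, each panel spanning 5 units) of the brightest probe set of each of the 8 genes in the 3 groups; circles are replicate 1, squares replicate 2 and bars the group mean (n = 2). Urod steps up from non-diabetic to diabetic to TSA-treated arrays, while TSA-treated replicate 2 lies far below the other arrays for Alas2 (8.60) and Ppox (4.10).

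Alad joins pairs of the first product into porphobilinogen. Its brightest probe set (1424877_a_at) was at 10.29 and 10.08 in non-diabetic, 10.55 and 10.66 in diabetic and 11.09 and 9.96 in TSA-treated mice. The TSA-treated arrays were the highest and the lowest of the 6, so their mean (0.34 above non-diabetic, limma adjusted p = 0.727) says little. A dimmer probe set, 1457306_at, was at 6.10 and 6.43, then 7.09 and 7.28, then 8.06 and 7.38, and the groups did not overlap. It lay 0.92 higher in diabetic (SE 0.27, limma adjusted p = 0.741) and 1.45 higher in TSA-treated mice (limma adjusted p = 0.128) than in non-diabetic mice.

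Uros closes the porphyrin ring. Its brightest probe set (1423482_at) was at 7.84 and 8.20 in non-diabetic, 8.50 and 8.98 in diabetic and 9.24 and 8.68 in TSA-treated mice. All 4 arrays of the latter groups lay above both non-diabetic arrays, and the diabetic and TSA-treated arrays overlapped. The differences from non-diabetic mice were 0.72 (limma adjusted p = 0.796) and 0.93 (limma adjusted p = 0.227). The dimmer 1440535_at was at 4.56 and 4.38, 5.11 and 5.52, and 5.82 and 6.01 in the same order of groups. Here the 3 groups did not overlap, and the TSA-treated mean lay 1.45 above the non-diabetic mean (SE 0.20, 95% interval 0.94 to 1.95, limma adjusted p = 0.0978).

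Urod trims the side chains of the ring and is the last enzyme of the cytosolic steps. Its brightest probe set (1443849_x_at) was at 10.97 and 10.88 in non-diabetic, 11.38 and 11.53 in diabetic and 12.24 and 12.31 in TSA-treated mice. The duplicates lay close together and the 3 groups did not overlap. The TSA-treated mean was 2.55-fold the non-diabetic mean (log2 difference 1.35, SE 0.16, 95% interval 0.96 to 1.73, limma adjusted p = 0.0826). The diabetic mean lay 0.53 above the non-diabetic mean (limma adjusted p = 0.741) and differed from the TSA-treated mean by -0.82 (limma adjusted p = 0.902). This probe set is on the study's own list of regulated genes, which was drawn from these arrays and is not independent evidence. That list prints its differences from non-diabetic mice with the opposite sign and with smaller adjusted p-values. The other probe set, 1417206_at, was at 8.15 and 8.07, 8.82 and 9.07, and 9.75 and 8.83, with both other groups above the non-diabetic arrays and overlapping each other.

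The call for Urod depended on which arrays were fitted. With the TSA-treated and non-diabetic groups fitted alone its SE was 0.153, against 0.157 with all arrays. A lone diabetic array adds nothing to the estimated spread, so leaving out either diabetic array repeats the fit of these groups alone. In that fit 1.59% of all probe sets passed, against 0.0688% with all arrays, and the adjusted p depends on all probe sets. Its adjusted limma p for TSA-treated against non-diabetic mice was 0.0430 without either diabetic array, 0.0307 without TSA-treated replicate 1, 0.192 without TSA-treated replicate 2, and 0.585 and 0.903 without non-diabetic replicates 1 and 2. The difference itself lay between 1.31 and 1.39 in all of these.

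Cpox carries the pathway back to the mitochondrion, and its 3 probe sets disagreed. The brightest (1422492_at) was at 8.19 and 7.84 in non-diabetic, 8.48 and 8.38 in diabetic and 9.24 and 8.77 in TSA-treated mice, with no overlap between groups. The TSA-treated mean lay 0.99 above the non-diabetic mean (SE 0.23, limma adjusted p = 0.164). The second, 1422493_at, ran the other way, at 6.96 and 7.45, 7.47 and 5.42, and 6.06 and 5.49, a TSA-treated difference of -1.42 (limma adjusted p = 0.389). The dimmest, 1440747_at, was above the array median on only 3 arrays. The direction for Cpox thus holds for its brightest probe set only, and turned to -0.48 when all 3 were averaged.

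Ppox oxidizes the ring to protoporphyrin. Its brightest probe set (1416618_at) was at 7.36 and 7.37 in non-diabetic, 8.04 and 7.22 in diabetic and 7.27 and 4.10 in TSA-treated mice. As for Alas2, TSA-treated replicate 2 stood far below the other arrays. The difference from non-diabetic mice was -1.68 (SE 0.96, limma adjusted p = 0.492), -0.09 without replicate 2 (limma adjusted p = 0.950) and -3.26 without replicate 1 (limma adjusted p = 0.0255). A second probe set, 1448065_at, was at 5.26 and 5.09, 5.05 and 5.35, and 5.84 and 6.38, so that both TSA-treated arrays were the highest, replicate 2 among them (difference 0.93, limma adjusted p = 0.191). The third, 1441862_at, was below the array median on all 6 arrays.

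Fech inserts iron into protoporphyrin. Its brightest probe set (1418699_s_at) was at 12.49 and 12.54 in non-diabetic, 12.74 and 12.84 in diabetic and 13.35 and 12.84 in TSA-treated mice. Both other groups lay above the non-diabetic arrays, by 0.27 and by 0.58 (SE 0.21, limma adjusted p = 0.293) in their means. A dimmer one, 1449181_at, spread wider, at 9.22 and 9.16, 9.63 and 10.28, and 11.29 and 10.46, and its TSA-treated mean was 3.22-fold the non-diabetic mean (log2 difference 1.69, SE 0.34, 95% interval 0.85 to 2.53, limma adjusted p = 0.142). In this comparison it was the 1 member probe set that passed a local-pooled-error test in the direction of TSA-treated mice (adjusted p = 0.0106), which 0.251% of all probe sets did, and 0 passed in the other direction, against 1.34%. Of the other probe sets, 1418698_a_at split its TSA-treated duplicates (12.24 and 10.23) and 1427696_at was above the array median on 1 array.

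**Figure D2:**
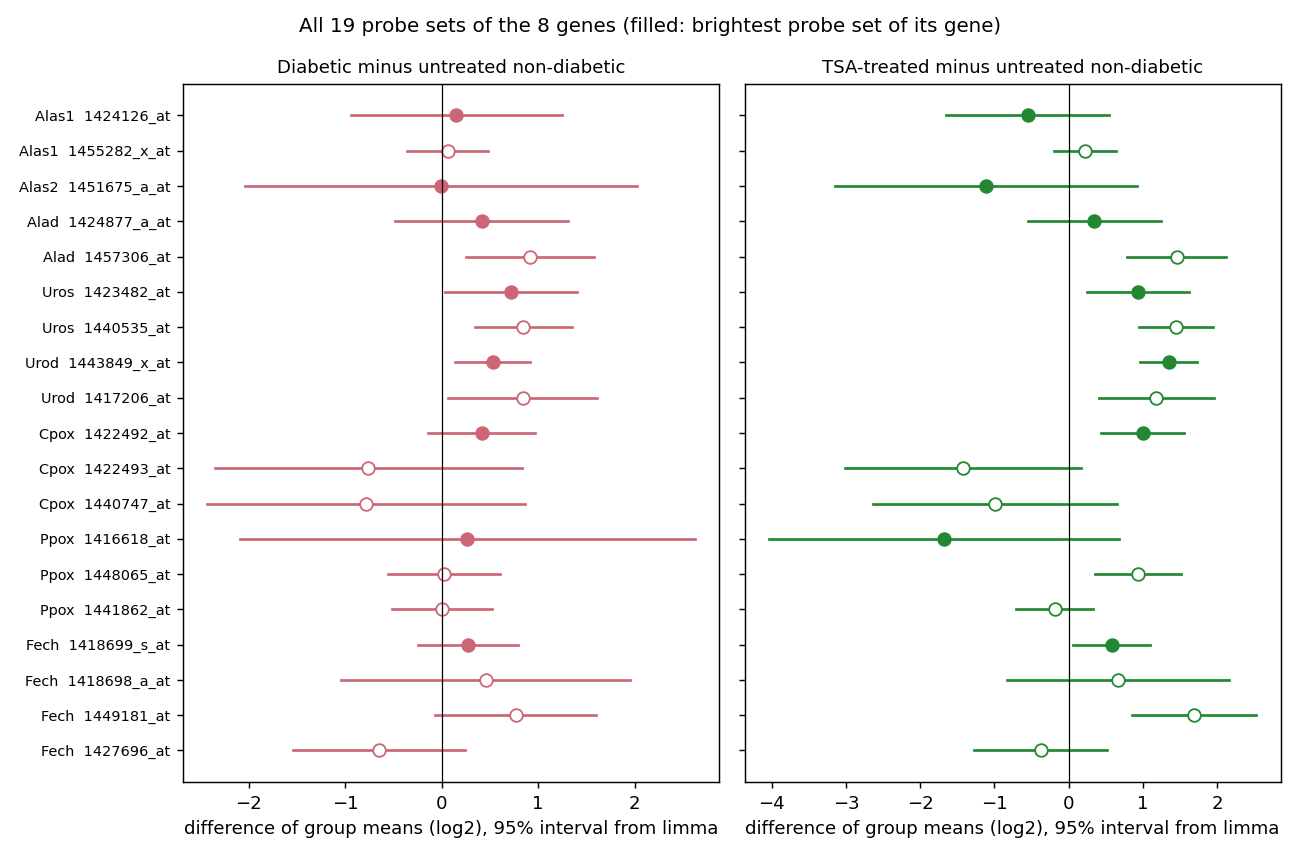
Difference of group means on the log2 scale (horizontal axis) with the 95% interval from limma for all 19 member probe sets, diabetic minus non-diabetic on the left and TSA-treated minus non-diabetic on the right; filled circles are the brightest probe set of a gene. On the right Urod lies at 1.35 and 1.18, while Alas2 and Ppox (1416618_at) lie below 0 with wide intervals.

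Group means ascended from non-diabetic through diabetic to TSA-treated in 11 of the 19 probe sets, against 26.9% of all probe sets. Every array of a group lay above every array of the group before it in 6 of the 19, in Alad, Uros, Urod, Cpox and Fech, against 3.35% of all. Diabetic arrays lay wholly above non-diabetic arrays in 10 of the 19 (21.6% of all) and wholly below in 1 (19.4%). TSA-treated arrays lay wholly above in 10 (26.3%) and wholly below in 4, of Cpox and Ppox (21.5%). Diabetic arrays lay wholly below TSA-treated arrays in 8 (16.2%) and wholly above in 0 (11.4%). The members were brighter than most probe sets, 16 of the 19 lying above the median level. Among those 16, group means ascended in 11 and all arrays in 6, against 25.3% and 4.31% of probe sets above that median. Likewise 10 of the 16 lay wholly above non-diabetic arrays in diabetic mice (25.8%) and 10 in TSA-treated mice (27.8%). The median difference over the 8 genes was 0.34 for diabetic and 0.46 for TSA-treated against non-diabetic mice, beside 0.04 and 0.07 over all genes. The median level of the 8 genes on an array had an SD between duplicates of 0.602 pooled over all 3 groups. Pooled over the non-diabetic and diabetic groups only, that SD was 0.153. The diabetic value lay below the first and above the second, and an SD of a median level is not that of a median difference. In the TSA-treated group that SD was 1.02, and the TSA-treated value was 0.87 without replicate 2 and 0.053 without replicate 1.

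**Figure D3:**
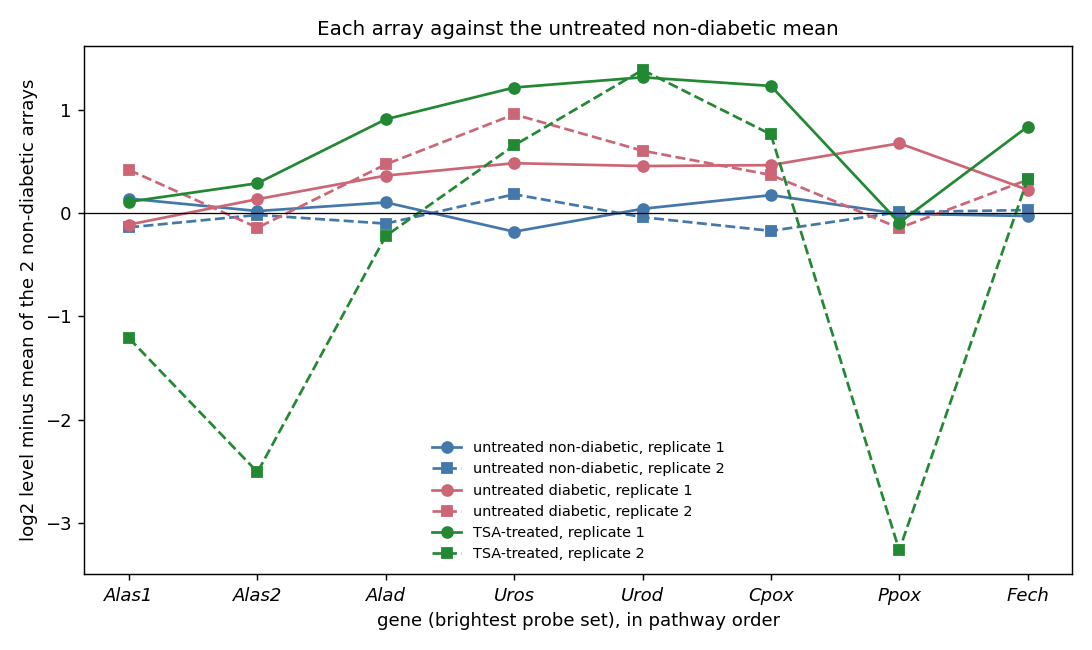
Each array's log2 level minus the mean of the 2 non-diabetic arrays (vertical axis) for the brightest probe set of each gene in pathway order; solid lines are replicate 1 and dashed lines replicate 2. TSA-treated replicate 2 lies below 0 for Alas1, Alas2, Alad and Ppox and above 0 for Uros, Urod, Cpox and Fech.

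The genes closest to 3 members over the 6 arrays were found by the mean absolute gap between profiles, each centered on its own mean, among 18192 other genes. Alas2 was closest to Exosc10 (gap 0.0785), C1qc (0.114), Mad2l2 (0.119), 9530068E07Rik (0.119) and Brap (0.122), which shared its low value on TSA-treated replicate 2. Urod was closest to Serinc5 (0.0490), Kif2c (0.0491), Chek2 (0.0638), Sox6 (0.0644) and Nudt12 (0.0658). Fech was closest to 2810403D21Rik (0.0406), Ctps (0.0516), Fth1 (0.0622), Pdzk1ip1 (0.0625) and Btf3 (0.0647), of which Fth1 encodes the heavy chain of the iron store ferritin. Of these neighbors, 2810403D21Rik lay between 2.81 and 3.61, below the array median on every array. Nudt12, at 3.37 and 3.25, lay below the median on the non-diabetic arrays.

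Genes that supply or use heme were examined as lists, each by the brightest probe set of a gene, and none of their members passed limma's test after adjustment. The TSA-treated duplicates differed, so list medians are given for each TSA-treated array alone as well, a step added after seeing the data. The list of heme and precursor transport held 16 genes, not all of them carriers. Of these, 14 were above the non-diabetic mean in diabetic and 13 in TSA-treated mice. Their median differences were 0.40 and 0.49 (0.69 on TSA-treated replicate 1 and 0.21 on replicate 2). Abcg2, an exporter of porphyrins, was at 8.69 (SD 0.06), 9.58 (SD 0.33) and 10.06 (SD 0.60) in non-diabetic, diabetic and TSA-treated mice (n = 2 each), and Clpx, a mitochondrial unfoldase that acts on the first enzyme, lay 0.95 higher in TSA-treated mice. Of 13 iron supply genes 10 were above the non-diabetic mean in TSA-treated mice (median 0.47, or 0.65 and 0.16 on replicates 1 and 2). Among them were Ncoa4, which delivers ferritin for breakdown (1.12), and the transferrin receptor Tfrc (0.78, or 1.39 and 0.16 on replicates 1 and 2). Slc25a28, a mitochondrial iron importer, lay below it (-0.70, limma adjusted p = 0.154). Of 9 iron-sulfur cluster genes 8 were above (median 0.48, or 0.79 and 0.46 on replicates 1 and 2), with Lyrm4 at 1.02. The 4 heme breakdown genes split, with the biliverdin reductase Blvra at 0.57 and the heme oxygenases Hmox1 and Hmox2 at -0.45 and -0.40 (list median -0.03, or 0.39 and -0.51 on replicates 1 and 2).

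Of 16 erythroid genes 14 were above the non-diabetic mean in diabetic and 13 in TSA-treated mice. Their median differences were 0.59 and 0.73, the latter 1.20 on TSA-treated replicate 1 and 0.25 on replicate 2. Their median level was 8.85 and 8.90 on non-diabetic, 9.43 and 9.34 on diabetic and 10.14 and 8.97 on TSA-treated arrays, so that replicate 2 lay below both diabetic arrays by this measure, while their summed level was 13.85 and 13.82 on non-diabetic, 14.35 and 14.41 on diabetic and 14.95 and 14.51 on TSA-treated arrays. Epb42, a protein of the red cell membrane skeleton, was at 6.64 (SD 0.26), 8.04 (SD 0.20) and 8.83 (SD 0.08) in the 3 groups (n = 2 each), a TSA-treated difference of 2.19 (limma adjusted p = 0.0521). All 6 globin genes measured were above the non-diabetic mean in both other groups, by medians of 0.23 and 0.58, but 3 of them were below the array median on both non-diabetic arrays, and Hba-a1 and Hba-x on every array. The embryonic globin Hbb-y was at 3.12 and 2.85 on the non-diabetic arrays, below their medians of 3.89 and 3.92, and above the median only on the TSA-treated arrays (4.93 and 5.78), so the size of its difference has no firm base. Globin copies share sequence, and their probe sets may not separate them. Hbb-b1, Hbb-bt, Hbb-bs and Ahsp were listed with the globins too, but no probe set named any of them alone. In RNA of whole spleen cells, more red cell precursors and more RNA per precursor cannot be told apart.

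Markers of other cells differed between the pools too. The lymphocyte list, which checks the labelled tissue, had 0 of its 9 genes below the median of every array, and 9 of 9 lay below the non-diabetic mean in TSA-treated mice (median -1.22, or -0.60 and -1.17 on replicates 1 and 2), with summed levels of 13.51 and 13.48, 13.44 and 13.50, and 13.11 and 12.58. Cell cycle genes lay above it, 12 of 13 in diabetic and 11 of 13 in TSA-treated mice (medians 0.70 and 0.87, the latter 1.22 and 0.46 on replicates 1 and 2). Pancreatic acinar genes rose, 9 of 10 in diabetic and 8 of 10 in TSA-treated mice by limma's adjusted p, with summed levels of 8.59 and 8.54, 15.11 and 15.06, and 12.53 and 12.44. The fat cell genes Car3 and Adipoq fell in TSA-treated mice, and 6 of 6 of that list lay below the non-diabetic mean there. Macrophage genes had medians of 0.34 and 0.30, the latter 0.32 and 0.14 on replicates 1 and 2, but they split. In TSA-treated mice 7 of the 10 lay above the non-diabetic mean, among them Cd5l (1.47) and Adgre1 (0.84). The 3 below included C1qa (-3.79, or -1.88 and -5.70 on replicates 1 and 2) and Cd68 (-1.38, or 0.26 and -3.03). Of the hepatocyte genes 0 of 8 passed, and Alb, Apoa1, Fgb and Ambp were below the median of every array. The part of these other cells in the values of the heme enzymes was not tested.

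**Figure D4:**
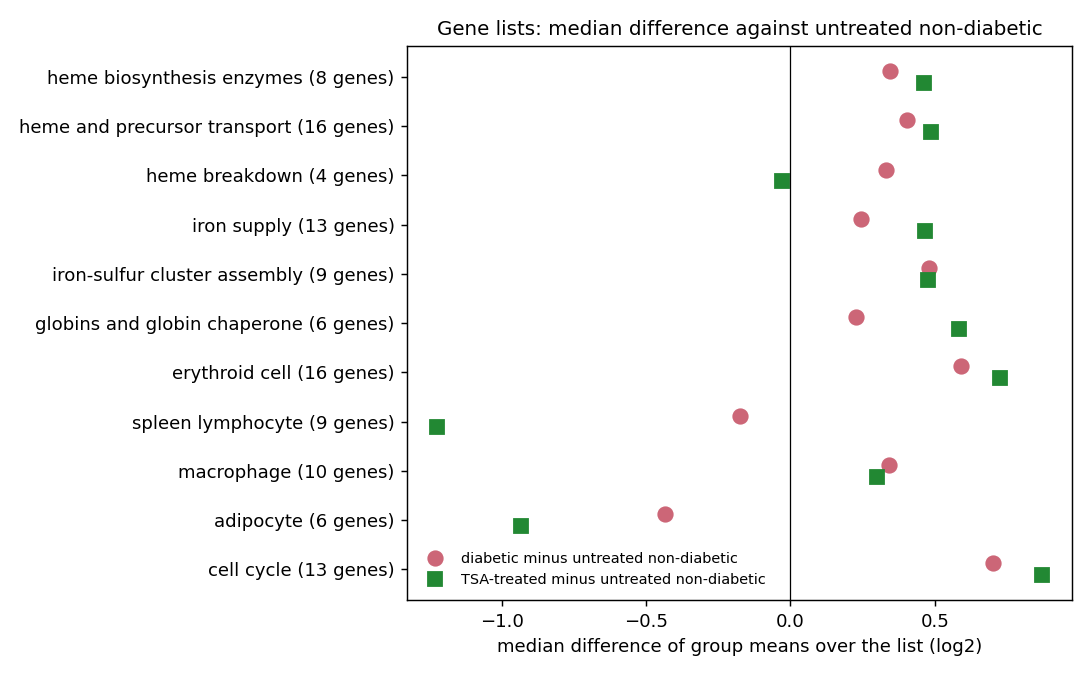
Median over each gene list of the difference of group means (horizontal axis, log2) against non-diabetic mice; circles are diabetic and squares TSA-treated mice, and the acinar and hepatocyte lists are left out. The heme enzymes lie at 0.34 and 0.46. Nearby are the heme transport (0.40 and 0.49), iron-sulfur cluster (0.48 and 0.48) and iron supply lists (0.24 and 0.47). The macrophage list (0.34 and 0.30) is near as well. The erythroid list lies further up (0.59 and 0.73), while the lymphocyte list lies at -0.17 and -1.22. The TSA-treated medians average 2 arrays that differ, 0.87 and 0.053 for the heme enzymes.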

How the data were processed

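RNA pools of spleen cells from 3 groups of female NOD mice were measured in duplicate on 6 Affymetrix arrays. The deposited values are log2 levels per probe set, which the authors made by RMA (background correction, quantile normalization and probe summary), and RMA compresses changes at low levels. Of 45101 probe sets, 64 Affymetrix controls were left out of the tests, and no filter on level was applied. Probe sets were named from the platform annotation, in which 34945 named 1 gene, 932 several and 9160 none, and comparison of gene IDs with RefSeq changed 0 symbols. A gene was represented by the brightest of the probe sets that named it alone, so a probe set naming several genes represented none.

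A single linear model (limma 3.58.1, R 4.3.3) covered the 6 arrays, with a mean for each group and 3 residual and 2.94 prior degrees of freedom. P-values were two-sided and adjusted by Benjamini-Hochberg over all 45037 probe sets. No counts lie behind array values, so the number of arrays limits the precision. The code was tested on simulated data. A local-pooled-error (LPE) test, written anew from its published description, and the methods' t-test were alternatives, beside other scalings, filters and left-out arrays. The text names all 8 members with all their probe sets, up to 4 genes of each other list by the largest difference between TSA-treated and non-diabetic mice, and the 5 genes closest to Alas2, Urod and Fech. The members and lists were chosen with earlier results of these data known. Promoter sequences are from RefSeq on GRCm38.p6.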

Additional observations from a re-analysis of the deposited data

How the results depend on the processing

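The counts of member probe sets passing limma's test were 0 in all 3 comparisons and moved in 6 of the 48 recomputed counts. For TSA-treated against non-diabetic mice the count was 1 with the LPE test (Fech), where 1.59% of all probe sets passed. It was 2 with the pair of groups fitted alone (Uros and Urod), where 1.59% of all probe sets passed too. With all arrays in the limma fit that share was 0.0688%, so calls rose over all probe sets and not for the members alone. Leaving out each array in turn gave 0 to 0 for diabetic against non-diabetic, 0 to 4 for TSA-treated against non-diabetic and 0 to 2 for diabetic against TSA-treated mice. The 4 arose without TSA-treated replicate 1, where the group is a lone array assumed to vary like the others (Uros and Urod higher, Alas2 and Ppox lower), where 4.54% of all probe sets passed, and the 2 were Alas2 and Ppox without the same array. Without diabetic replicate 1 or 2 the fit of this second comparison was that of the pair of groups alone, since a lone diabetic array adds nothing to the spread. Its calls (Uros and Urod) are therefore not a further result. Over all probe sets, 30 of 48 recomputed counts lay more than 1.5 times from those reported. Leaving out each array in turn, the 8-gene median ran from 0.29 to 0.41 for diabetic minus non-diabetic, 0.053 to 0.87 for TSA-treated minus non-diabetic and -0.49 to 0.35 for diabetic minus TSA-treated mice. Both ends of the last ranges came from leaving out a TSA-treated array.

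Some single differences changed direction. Leaving out each array in turn, diabetic minus non-diabetic ran from -0.11 to 0.42 for Alas1, -0.14 to 0.13 for Alas2 and -0.15 to 0.67 for Ppox. TSA-treated minus non-diabetic ran from -1.21 to 0.11 for Alas1, -2.51 to 0.29 for Alas2 and -0.22 to 0.91 for Alad. Diabetic minus TSA-treated ran from -0.29 to 2.50 for Alas2, -0.49 to 0.64 for Alad and -0.50 to 0.064 for Uros. For Alad, diabetic minus TSA-treated was -0.029 with quantile normalization again and -0.23 when a gene's probe sets were averaged. For Alas2, diabetic minus non-diabetic was 0.050 with median centring. When a gene's probe sets were averaged, Cpox was -0.38, -0.48 and 0.10 in the 3 comparisons, since its probe sets disagree. The cause of the other changes was not tested.

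The correlations of same-numbered deviations were -0.34 for non-diabetic with diabetic, -0.036 for non-diabetic with TSA-treated and -0.11 for diabetic with TSA-treated arrays. These values give no sign of pairing by the same number. Duplicates deviate from their group mean by equal and opposite amounts, so correlations across numbers are these same values with the sign reversed. The value of -0.34 thus means that non-diabetic and diabetic arrays of unlike number shared part of their deviation. The cause of this was not tested, and no fit used blocks across numbers. With the replicate number as a block the member counts stayed 0, 0 and 0, and over all probe sets 33, 30 and 0 passed against 40, 31 and 12. Probe sets near the array median have little signal over background, which limits 1427696_at, 1440747_at and 1441862_at most.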
